A study of Mus musculus with 96 samples.

Results

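Promoter peaks open in both hepatocyte and macrophage nuclei of mouse liver are described here, in fed mice and at 4 times of a fast. A member is a 200 bp ATAC-seq peak of the hepatocyte table that overlaps a peak of the macrophage table by at least 100 bp, with the peak lying within 1000 bp of the nearest annotated transcription start site (TSS) in both tables. The rule used positions only and no signal value. It gave 11400 pairs of peaks, made of 11337 of the 46832 hepatocyte peaks and 11334 of the 30170 macrophage peaks, and 8422 nearest genes. In 11333 pairs the coordinates were the same in both tables, and 11398 pairs had the same nearest gene. Within 10 bp of the overlap limit, 46 members lay inside and 61 promoter pairs outside. Within 50 bp of the distance limit, 40 members lay inside and 32 shared pairs outside.

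The nuclei were tagged and captured from HEP-INTACT mice (hepatocyte nuclei) or MAC-INTACT mice (macrophage nuclei), and accessibility was measured by ATAC-seq, in which a transposase cuts open DNA. Female mice had been fasted for 3, 8, 16 or 24 h from ZT12 (zeitgeber time, hours after lights on). Mice with free access to food were taken at matching clock times (ZT15, ZT20, ZT4 and ZT12). Each of the 16 groups held 4 mice. The labels do not state what drives the nuclear tag, and the feeding labels of the macrophage samples carry an added "lys" that they do not explain. Macrophage samples were run in duplicate and deposited as 1 column per mouse. In nuclei from a whole liver, a change of the mix of captured cells and a change of openness per nucleus cannot be told apart. A peak is named by the gene of the nearest TSS, which does not show that it regulates that gene.

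Active promoters are held open around their TSS by general transcription factors, and the genes of this kind that many cell types share serve transcription, translation, energy metabolism and protein turnover. Other promoters that are open in many cell types belong to genes that respond to hormones, nutrients or cytokines, and their openness can shift with binding of regulated factors. During a fast, insulin falls and glucagon and glucocorticoids rise, which in liver is known for a switch from lipid synthesis to fatty acid oxidation and glucose production.

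The labels fitted the hepatocyte and macrophage marker genes. Of 12 hepatocyte markers, 11 had a promoter peak in the hepatocyte table and 0 in the macrophage table. All 14 macrophage markers had one in the macrophage table, and 1 of them also had one in the hepatocyte table. Peaks near the 14 macrophage markers took 0.0182 to 0.0304% of hepatocyte reads in fed mice and 0.0164 to 0.0321% in fasted mice, against 0.163 to 0.219% in macrophage nuclei. Of other cell types, the macrophage table had promoter peaks at the endothelial marker Lyve1 and the monocyte and neutrophil marker S100a8. The hepatocyte table had them at the stellate cell marker Reln and the cholangiocyte marker Sox9. Peaks near 7 sinusoidal endothelial markers took 0.0178 to 0.0226% of hepatocyte reads and 0.0103 to 0.0211% of macrophage reads. Reads in peaks ranged from 2458156 to 6098645 per hepatocyte mouse and from 1729720 to 4637873 per macrophage mouse.

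Promoter sequence is shown for 8 members on which the results below turn: 2 of the 6 members called in both cell types at the most times, those with a RefSeq sequence (Mt1 at 4 times, Ifitm3 at 3), 2 other interferon-induced promoters (Gbp7, Igtp), 1 sterol promoter (Hmgcs1), 1 clock promoter (Per1), a linker histone promoter (Hist1h1d, named H1f3 in RefSeq) and a hepatocyte-responsive one (Nr4a1). Each run is the 250 bases upstream of a RefSeq start in GRCm38.p6 (the mm10 build), 5′ to 3′ on the gene's strand. Capitals mark every match, on both strands, to any of the 12 motifs named in the next paragraph, and matches that touch run together.
Mt1, chr8:94178839-94179088, plus strand: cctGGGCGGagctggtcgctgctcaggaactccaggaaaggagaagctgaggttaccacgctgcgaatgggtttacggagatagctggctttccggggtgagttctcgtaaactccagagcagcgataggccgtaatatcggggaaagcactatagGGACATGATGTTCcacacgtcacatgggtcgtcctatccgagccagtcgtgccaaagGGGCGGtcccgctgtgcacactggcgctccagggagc
Ifitm3, chr7:141010745-141010994, minus strand: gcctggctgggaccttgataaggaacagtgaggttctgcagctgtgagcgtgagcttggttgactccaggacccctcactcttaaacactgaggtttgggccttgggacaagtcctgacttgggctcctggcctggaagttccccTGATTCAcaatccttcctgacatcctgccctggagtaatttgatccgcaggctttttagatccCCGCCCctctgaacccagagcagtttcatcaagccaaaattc
Gbp7, chr3:142530086-142530335, plus strand: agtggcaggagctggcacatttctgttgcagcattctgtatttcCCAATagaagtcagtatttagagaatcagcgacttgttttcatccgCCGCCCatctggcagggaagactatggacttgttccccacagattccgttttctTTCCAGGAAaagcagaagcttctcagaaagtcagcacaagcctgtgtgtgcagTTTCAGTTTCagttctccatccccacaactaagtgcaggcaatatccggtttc
Igtp, chr11:58199306-58199555, plus strand: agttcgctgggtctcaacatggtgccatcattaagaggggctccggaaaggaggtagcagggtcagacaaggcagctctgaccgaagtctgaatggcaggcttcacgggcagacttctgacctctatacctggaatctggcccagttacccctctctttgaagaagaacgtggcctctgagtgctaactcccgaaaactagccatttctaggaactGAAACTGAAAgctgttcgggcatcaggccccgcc
Hmgcs1, chr13:119690101-119690350, plus strand: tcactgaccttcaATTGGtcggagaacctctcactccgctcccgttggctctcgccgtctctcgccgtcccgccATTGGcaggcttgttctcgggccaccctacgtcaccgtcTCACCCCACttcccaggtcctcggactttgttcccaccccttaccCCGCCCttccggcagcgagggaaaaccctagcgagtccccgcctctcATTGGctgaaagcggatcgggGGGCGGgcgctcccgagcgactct
Per1, chr11:69098699-69098948, plus strand: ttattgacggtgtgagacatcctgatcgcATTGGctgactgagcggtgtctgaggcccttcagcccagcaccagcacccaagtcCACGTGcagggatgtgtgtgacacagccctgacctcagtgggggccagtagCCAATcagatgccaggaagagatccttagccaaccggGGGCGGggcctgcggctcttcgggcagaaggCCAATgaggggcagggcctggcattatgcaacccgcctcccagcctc
Hist1h1d, chr13:23554782-23555031, plus strand: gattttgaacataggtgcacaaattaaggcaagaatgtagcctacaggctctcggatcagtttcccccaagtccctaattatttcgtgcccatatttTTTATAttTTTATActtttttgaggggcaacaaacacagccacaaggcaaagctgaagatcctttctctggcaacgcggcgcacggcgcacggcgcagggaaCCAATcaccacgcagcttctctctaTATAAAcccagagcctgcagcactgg
Nr4a1, chr15:101266596-101266845, plus strand: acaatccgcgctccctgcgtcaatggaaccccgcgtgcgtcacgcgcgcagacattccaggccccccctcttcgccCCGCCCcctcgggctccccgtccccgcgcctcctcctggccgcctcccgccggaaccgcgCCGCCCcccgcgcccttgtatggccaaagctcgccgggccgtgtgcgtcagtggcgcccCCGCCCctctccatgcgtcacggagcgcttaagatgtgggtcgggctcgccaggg

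The motifs searched were the GC box GGGCGG, the CCAAT box CCAAT, the TATA box TATAAA, the ETS site CCGGAAGT, the NRF1 site (GCGCA joined to TGCGC), the cyclic AMP response element TGACGTCA, the E-box CACGTG, the AP-1 site TGANTCA, the glucocorticoid receptor element (GNACA and TGTNC with 3 bases between), the interferon-stimulated response element (GAAA and GAAA with 2 bases between), the STAT site TTCCNGGAA and the sterol regulatory element TCACNCCAC. The Mt1 run holds a glucocorticoid receptor element from -94 to -82 and 2 GC boxes. The Gbp7 run holds a STAT site from -106 to -98 and an interferon-stimulated response element from -53 to -44, and the Igtp run holds such an element from -34 to -25. In Hmgcs1 a sterol regulatory element lies from -137 to -129, in Per1 an E-box from -166 to -161, and in Hist1h1d a TATA box from -26 to -21. The Ifitm3 run holds an AP-1 site and a GC box, and the Nr4a1 run 3 GC boxes.

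Of the 11337 hepatocyte members, 6196 (54.7%) covered at least 100 bases of such an upstream run in RefSeq, and the shares below are over these. GC boxes were in 71.2% of them, against 32.7% of all 32851 promoter runs of the same length. CCAAT boxes were in 42.3% against 33.8%, ETS sites in 8.17% against 2.88%, NRF1 sites in 2.40% against 0.782% and E-boxes in 10.3% against 6.02%. TATA boxes ran the other way, in 4.45% of members and 12.4% of all promoters. AP-1 sites were in 3.21% against 6.75%, and the glucocorticoid receptor element was in 13 members, 0.210% against 0.387%. Interferon-stimulated response elements were in 2.03% against 2.98%. A match is a run of letters and does not show that a factor binds there.

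Most members lay close to the start. The peak centre was within 100 bp of the TSS in 6930 members (61.1%), and 71.6% of centres were upstream, with a median position of -41 bp. The annotation column of the deposited table called 10017 members promoter-TSS, 797 intron and 310 5′ UTR. A single member was nearest to 6140 genes, and 2282 genes had 2 or more, with at most 7. Levels are the deposited normalized reads per 200 bp peak, and each cell type was scaled on its own. The median member had 88.9 normalized reads in hepatocytes and 124 in macrophages, above the medians over all peaks of 52.7 and 58.7. Across the 11333 pairs with the same coordinates, the rank order of levels was close between the cell types, with a Spearman coefficient of 0.946 over peaks that share their sequence.

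Members made up 24.2% of hepatocyte peaks and 37.6% of macrophage peaks, and took 33.1 to 39.1% and 57.4 to 65.2% of the reads in peaks. This share needs no scaling between libraries. At 24 h in hepatocytes it lay between 33.1 and 35.1% in the fed mice and between 36.4 and 38.8% in the fasted mice, with no overlap. The hepatocyte ranges overlapped at 3 h, 34.0 to 35.1% fed and 33.9 to 34.9% fasted, at 8 h, with means of 35.4 ± 0.59% and 36.2 ± 0.95% (SD, n = 4), and at 16 h, 35.5 to 38.0% and 37.7 to 39.1%. Macrophages had 57.7 to 60.2% fed and 60.5 to 64.0% fasted at 8 h, and 59.1 to 61.2% fed and 61.4 to 65.2% fasted at 16 h, with no overlap at either time. Their ranges overlapped at 3 h, 59.0 to 62.4% fed and 59.3 to 61.2% fasted, and at 24 h, 57.4 to 62.2% and 61.5 to 63.5%. A share of reads rises when members open or when other peaks close, and these cannot be told apart from it.

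**Figure D1:**
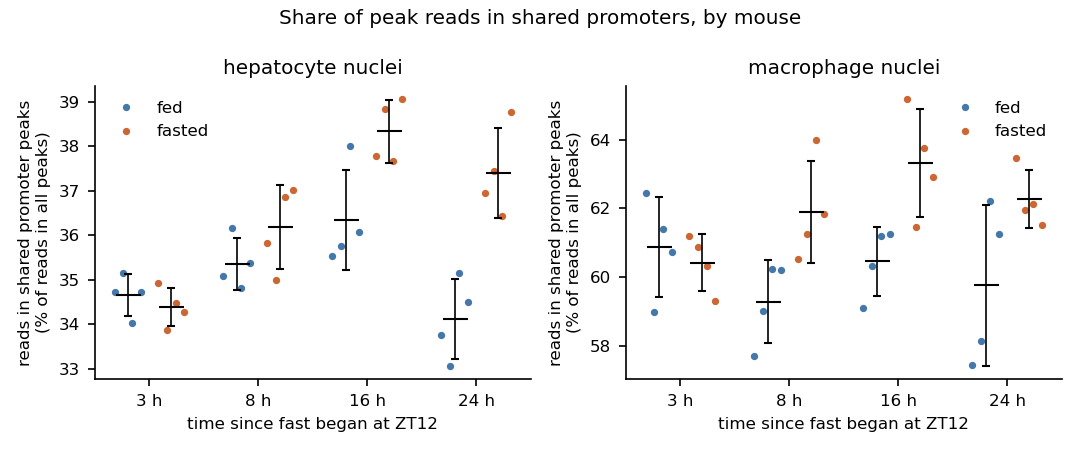
Reads in shared promoter peaks as a percent of reads in all peaks (y axes, which start above 0) by time since the fast began (x axes), with 1 point per mouse, 4 fed and 4 fasted mice per time, and bars at the mean and SD. The fasted hepatocyte mice at 24 h sit between 36.4 and 38.8%, above the fed mice at 33.1 to 35.1%.

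On the deposited scale, more shared promoters were higher in fasted than in fed hepatocytes at each later time. The level itself did not climb throughout: the median member stood at log2 6.40 ± 0.07, 6.58 ± 0.07, 6.70 ± 0.04 and 6.61 ± 0.08 in fasted mice (mean ± SD of 4 mice) at 3, 8, 16 and 24 h, and at 6.38 ± 0.04, 6.44 ± 0.04, 6.53 ± 0.09 and 6.33 ± 0.07 in fed mice. The wider gap at 24 h than at 16 h thus went with a lower level in both groups, and more so in fed mice. Fold changes are log2 of fasted over fed with an offset of 2 normalized reads, and a peak is called at an adjusted p under 0.05 in limma. At 3 h, 648 members were higher and 302 lower in fasted mice, 8.38% of members, where 21.6% of all 46827 tested hepatocyte peaks were called (11.3% higher, 10.3% lower). The counts were 1986 and 194 at 8 h, 19.2% of members beside 34% of all peaks (20.3% higher, 13.7% lower). At 16 h they were 2417 and 93, 22.1% beside 31.8% (19% higher, 12.8% lower). At 24 h they were 5469 and 74, 48.9% beside 36.7% (25.3% higher, 11.4% lower). The median member changed by -0.0069, 0.13, 0.17 and 0.29 at the 4 times, and the median tested peak by -0.0086, 0.08, 0.10 and 0.16.

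Changes at single members were small. At least a 2-fold rise passed the test at 27, 35, 21 and 9 hepatocyte members at 3, 8, 16 and 24 h, where 2.68, 4.18, 2.74 and 1.05% of all tested peaks did, and a 2-fold fall at 6, 10, 4 and 7, where 2.33, 4.3, 4.02 and 3.7% of all tested peaks did. Nearly all of the many higher calls at 24 h on the deposited scale were thus under 2-fold. Their number depended on the scale, as given below.

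In macrophages the counts on the deposited scale were lower. At 16 h this order depended on the scale. Centred on the median of all peaks, 2549 macrophage and 1544 hepatocyte members were called at 16 h. Centred on the median of the shared promoters they were 1333 and 891, and with the count test edgeR 2045 and 1243. On the deposited scale the median macrophage member stood at log2 6.96 to 6.99 in all 8 groups. At 3 h 35 members were higher and 8 lower, 0.379% of the 11334 members, where 1.82% of the 30170 tested peaks were called (1.68% higher, 0.139% lower). They were 183 and 47 at 8 h, 2.03% beside 6.6% of all peaks (1.63% higher, 4.96% lower). At 16 h they were 692 and 695, 12.2% beside 21.3% (3.79% higher, 17.5% lower), and at 24 h 394 and 221, 5.43% beside 11.3% (3% higher, 8.28% lower). Members at 16 h were called both ways about equally often, while most calls over all peaks were lower. Median changes of members were -0.0041, 0.01, -0.00096 and 0.03, and those of all tested peaks -0.0041, -0.07, -0.10 and -0.06. A 2-fold rise passed at 1, 1, 1 and 0 members at 3, 8, 16 and 24 h, where 0.563, 0.262, 0.0829 and 0.341% of all tested peaks did, and a 2-fold fall at 0, 0, 1 and 2, where 0.00331, 0.0696, 0.487 and 0.451% did.

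The balance of higher and lower calls depended on the scale. When every library was centred on the median of the shared promoters, a choice made after seeing the data, the hepatocyte counts became 648 higher and 451 lower at 3 h (all peaks 10.5 and 10.7%), 744 and 785 at 8 h (12.1 and 19.8%), 428 and 463 at 16 h (7.85 and 20%), and 339 and 481 at 24 h (2.67 and 21.5%). In either direction all peaks were then called at 21.2, 31.9, 27.9 and 24.1%. Macrophage counts after this centring were 37 and 6, 163 and 64, 821 and 512, and 258 and 313, where all peaks had 1.69 and 0.119%, 1.51 and 5.09%, 4.37 and 14.7%, and 2.28 and 9.75%. With libraries centred on the median of all peaks, 3585 hepatocyte members were higher and 109 lower at 24 h (all peaks 16.2 and 13.1%), and 2450 macrophage members higher and 99 lower at 16 h (12.5 and 8.7%). The median macrophage member then changed by -0.02, 0.13, 0.14 and 0.13 at the 4 times, and the median tested peak by -0.02, 0.04, 0.04 and 0.05. Centring on the shared promoters sets their own median alike in all libraries, so it removes any shift common to them. The near balance of calls after it therefore does not show whether members shifted. Centring on all peaks measures members against the median of all tested peaks, the members included. Members were 24.2% of hepatocyte and 37.6% of macrophage peaks. Single members below are given with their call after centring on the shared promoters ("centred") where it differs. Counts also moved with single mice, from 1574 without fed mouse 1 to 3177 without fed mouse 3 in hepatocytes at 16 h, and from 80 without fasted mouse 3 to 286 without fasted mouse 1 in macrophages at 8 h.

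**Figure D2:**
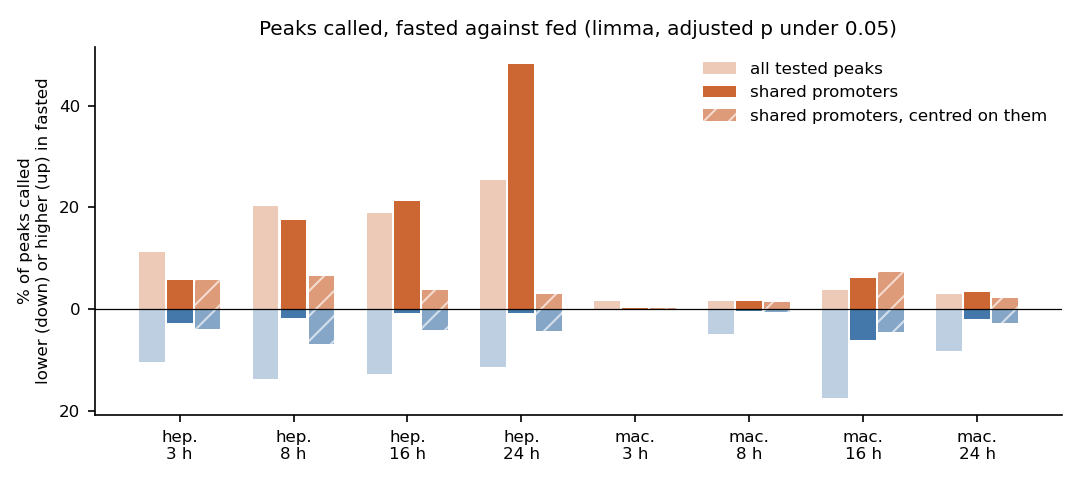
Percent of peaks called higher (up, orange) or lower (down, blue) in fasted than in fed mice (y axis) for each cell type and time (x axis), for all tested peaks, for the shared promoters on the deposited scale, and for the shared promoters centred on their own median. At 24 h in hepatocytes 48.2% of shared promoters were higher on the deposited scale and 2.99% after centring. This centring sets the median of the shared promoters alike in all libraries.

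Large changes made up a smaller share of members than of the peaks most like them. In hepatocytes at 8 h, 0.397% of members changed by at least 2-fold in either direction, before any test, against 5.18% of the 4888 promoter peaks that overlap no macrophage peak and 4.45% of the 2651 shared peaks over 1000 bp from a TSS. Macrophage promoter peaks that overlap no hepatocyte peak (2723) had a median of -0.15 at 16 h, with 450 lower and 30 higher, against a member median of -0.00096. These are descriptions of peak sets and carry no test of the sets' difference.

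Position within the promoter went with the early response in hepatocytes, and with a smaller one in macrophages. At 3 h in hepatocytes the median change was -0.02 for the 6930 members within 100 bp of the TSS. It was 0.08 for the 1228 more than 100 and up to 500 bp downstream and 0.10 for the 400 farther downstream. Of these, 3.84, 12.6 and 13.0% were called higher, and 15.6, 23.3 and 26.25% at 8 h. In macrophages at 3 h the medians at these positions were -0.01, 0.02 and 0.04, with 0.130, 0.733 and 1.5% called higher. At 24 h in hepatocytes the order was not kept. There 47.5% of the members within 100 bp were called higher. So were 59.4% of those more than 100 and up to 500 bp upstream and 34.5% of those over 500 bp downstream.

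Few members were called in both cell types at a time. At 3 h 25 pairs were higher in both and 4 lower in both (all shared pairs 0.661 and 0.0782%). At 8 h it was 106 and 17 (1.3 and 0.348%), at 16 h 391 and 37 (3.59 and 0.725%), and at 24 h 350 and 27 (3.02 and 0.682%). As a share of each list, the pairs called the same way were 3.03% of hepatocyte and 67.4% of macrophage calls at 3 h, 5.59% and 53.2% at 8 h, 17.0% and 30.6% at 16 h, and 6.76% and 61.0% at 24 h. Over all members, 8.38, 19.2, 22.1 and 48.9% were called in hepatocytes in either direction. In macrophages 0.379, 2.03, 12.2 and 5.43% were. Opposite calls numbered 0, 4, 21 and 11 at the 4 times, and in each of these the promoter was higher in fasted hepatocytes and lower in fasted macrophages. After centring, same-way pairs numbered 30, 85, 226 and 154, with 107 lower in both at 16 h and 114 at 24 h (2.71, 5.53, 25.2 and 18.7% of hepatocyte calls and 69.8, 37.3, 16.8 and 26.9% of macrophage calls), and opposite calls 0, 0, 4 and 0. Over all 11400 pairs the correlation of the fasting effects was 0.44, 0.41, 0.45 and 0.50, a description over peaks that share libraries within each cell type.

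**Figure D3:**
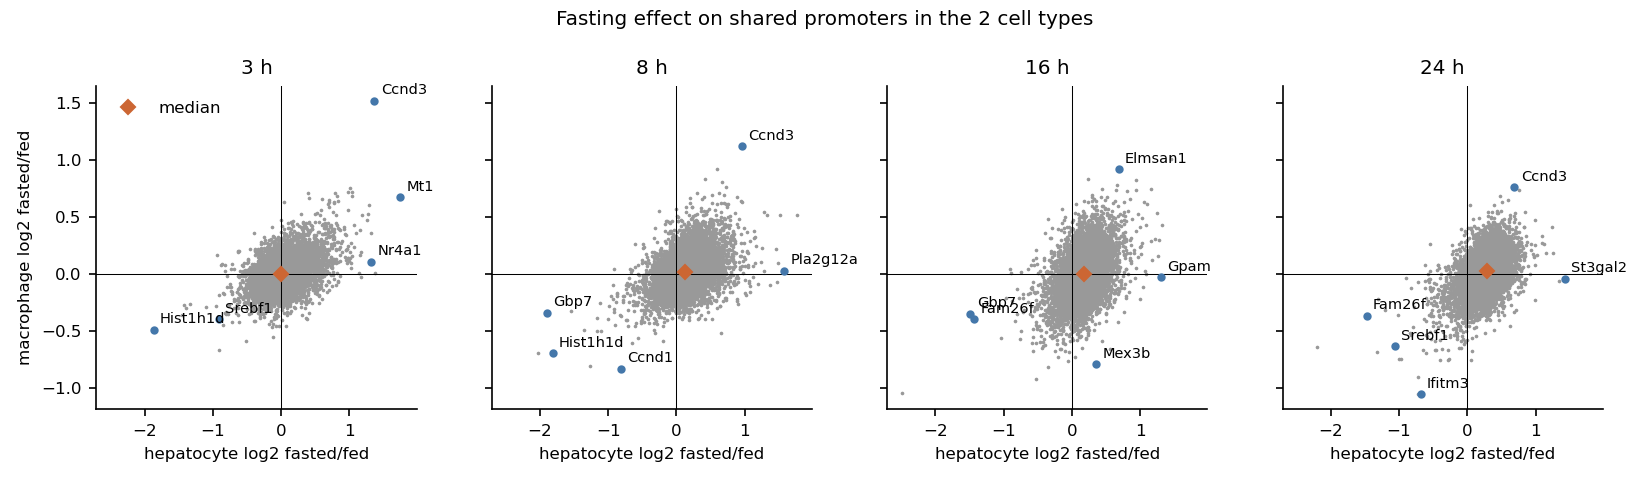
Log2 fold change of fasted over fed mice at each shared promoter in hepatocytes (x axes) and macrophages (y axes) at 3, 8, 16 and 24 h, with 1 grey point per pair, the median as a diamond and named members in blue. On the deposited scale the median moves right from -0.0069 at 3 h to 0.29 at 24 h in hepatocytes and stays between -0.0041 and 0.03 in macrophages. With centring on all peaks the macrophage median was 0.13, 0.14 and 0.13 at 8, 16 and 24 h.

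Called in both cell types in the same direction at all 4 times were 2 pairs, at 3 times 12, at 2 times 129 and at 1 time 655. The same count was not made over all shared pairs, so it does not set members apart from them. The 2 pairs called at all 4 times were promoters of Srebf1 and Mt1. Srebf1 encodes the lipogenic transcription factor SREBP-1, and Mt1 a zinc-binding metallothionein known to be induced by glucocorticoids. By the rule used for naming, the next were promoters of Ccnd3, Tmem87b, Ifitm3 and Pim3, each called at 3 times.

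The Mt1 promoter peak (chr8:94178977-94179177, centre at -12 bp) rose. In hepatocytes at 3 h the fed mice had 73.2, 69.3, 76.1 and 60.2 normalized reads and the fasted mice 291, 238, 217 and 208 (log2 fold change 1.74 ± 0.16 (SE), adjusted p = 1.39e-09 in limma). All 4 fasted mice were far above all fed mice. In macrophages at 3 h the fed mice had 151, 197, 163 and 172 and the fasted mice 282, 224, 291 and 294 (log2 fold change 0.67 ± 0.10 (SE), adjusted p = 9.43e-06), again without overlap. The hepatocyte rise was larger than the macrophage rise at 3 h by 1.07 ± 0.19 (SE), adjusted p = 0.000343 and at 8 h by 0.999 ± 0.19 (SE), adjusted p = 0.000274. By 24 h the changes were 0.43 and 0.31. At that time the hepatocyte groups overlapped, and after centring neither cell type passed (0.15, adjusted p = 0.483 and 0.28, adjusted p = 0.0594). In fed hepatocytes the level itself went from 60.2 to 76.1 at ZT15 to 164 to 237 at ZT12, so the smaller change at 24 h stood on a higher fed level.

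At Srebf1 the peak at -318 bp (chr11:60222799-60222999) closed. Hepatocyte levels at 24 h were 81.3, 75.6, 109 and 113 in fed and 43.4, 43.6, 44.8 and 42.6 in fasted mice (log2 fold change -1.06 ± 0.14 (SE), adjusted p = 1.09e-06). The 4 fasted mice were close together, and all were below the fed mice. In macrophages at 24 h they were 106, 110.4, 139 and 111 and 81.8, 64.7, 83.7 and 66.6 (log2 fold change -0.64 ± 0.11 (SE), adjusted p = 6.09e-05), also without overlap. Changes at 3, 8 and 16 h were -0.91, -0.999 and -0.83 in hepatocytes and -0.40, -0.40 and -0.41 in macrophages. The macrophage calls at 3 and 8 h were weak: they did not pass with centring on all peaks, nor in 7 of 8 fits at 3 h (all but without fasted mouse 2) and 6 of 8 at 8 h (all but without fasted or fed mouse 1) that left out 1 mouse. The hepatocyte fall was larger at 8 h (-0.60 ± 0.17 (SE), adjusted p = 0.0321), and the difference did not pass at the other times on the deposited scale. After centring it passed at 8, 16 and 24 h.

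Ccnd3 encodes a D-type cyclin that drives entry into the cell cycle, and it had 2 shared promoters that behaved differently. At +60 bp of the first (chr17:47505011-47505211) the macrophages at 3 h had 31.9, 34.7, 34.9 and 23.7 fed and 87.1, 93.97, 94.6 and 93.4 fasted (log2 fold change 1.52 ± 0.16 (SE), adjusted p = 4.59e-10), the largest change of any member in macrophages at that time. Hepatocytes had 28.2, 34.7, 24.0 and 15.96 and 74.99, 52.5, 81.8 and 63.2 (log2 fold change 1.37 ± 0.19 (SE), adjusted p = 2.33e-06), and groups did not overlap in either cell type. The difference between the cell types was -0.15 ± 0.24 (SE), adjusted p = 0.921. At 16 h the changes were 0.15 in hepatocytes, which did not pass, and 0.44 in macrophages, and at 24 h 0.69 and 0.76, of which the hepatocyte change did not pass after centring (0.42, adjusted p = 0.107). The other Ccnd3 promoter, at -29 bp of a different start (chr17:47593338-47593538), fell in macrophages, where at 24 h the fed mice had 292, 302, 314 and 307 and the fasted mice 273, 268, 242 and 260.3 (log2 fold change -0.22 ± 0.06 (SE), adjusted p = 0.0143). It was called lower there at 8, 16 and 24 h, while the first was called higher. Its 16 h call did not pass with centring on all peaks or without fasted mouse 4.

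Ccnd1, the gene of a related D-type cyclin, moved the other way. Its peak at +84 bp (chr7:144939741-144939941) in macrophages at 8 h had 80.6, 86.6, 69.97 and 70.2 fed and 51.98, 43.6, 37.03 and 37.7 fasted (log2 fold change -0.83 ± 0.13 (SE), adjusted p = 4.11e-05), with no overlap. In hepatocytes at 3 h it had 36.6, 30.2, 37.7 and 31.9 and 15.5, 17.5, 8.73 and 9.48 (log2 fold change -1.33 ± 0.25 (SE), adjusted p = 0.000196), again apart. The fall at 3 h was larger in hepatocytes (-1.07 ± 0.27 (SE), adjusted p = 0.0309), where macrophages changed by -0.26 without passing. That difference no longer passed with an offset of 8, with separate fits, or in 10 of the 16 fits that left out 1 mouse (all but hepatocyte fasted 1 or 2, hepatocyte fed 2 or 4, macrophage fasted 3 and macrophage fed 1).

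Ifitm3 encodes an interferon-induced membrane protein that restricts virus entry. At its peak (chr7:141010673-141010873, -29 bp) the macrophages at 24 h had 39.05, 58.2, 50.7 and 52.1 fed and 22.8, 23.8, 22.1 and 22.5 fasted (log2 fold change -1.06 ± 0.16 (SE), adjusted p = 7.34e-06). Hepatocytes at 8 h had 36.7, 41.8, 35.5 and 44.05 and 17.1, 14.1, 14.9 and 11.04 (log2 fold change -1.36 ± 0.18 (SE), adjusted p = 3.63e-07), and in both the fasted mice were all lower. At 3 h the change was -0.76 in hepatocytes, which passed, and -0.27 in macrophages, which did not. The difference between the cell types passed at 8 h (-0.86 ± 0.23 (SE), adjusted p = 0.0169) and not at 3, 16 or 24 h.

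Klf9, a transcription factor gene known to respond to glucocorticoids, rose at its -392 bp peak (chr19:23140734-23140934). At 24 h macrophages had 125, 119, 123 and 128 fed and 192, 203, 201 and 184 fasted (log2 fold change 0.65 ± 0.09 (SE), adjusted p = 1.22e-06), and hepatocytes 96.6, 111, 139 and 132 and 170.0, 185, 170.0 and 196 (log2 fold change 0.60 ± 0.12 (SE), adjusted p = 0.000228). Neither pair of groups overlapped. Pim3, a serine/threonine kinase gene, rose by 0.52 in hepatocytes and 0.43 in macrophages at 24 h. Tmem87b rose at its +887 bp peak, by 1.77 and 0.51 at 8 h, with a larger hepatocyte change (1.26 ± 0.30 (SE), adjusted p = 0.0077).

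**Figure D4:**
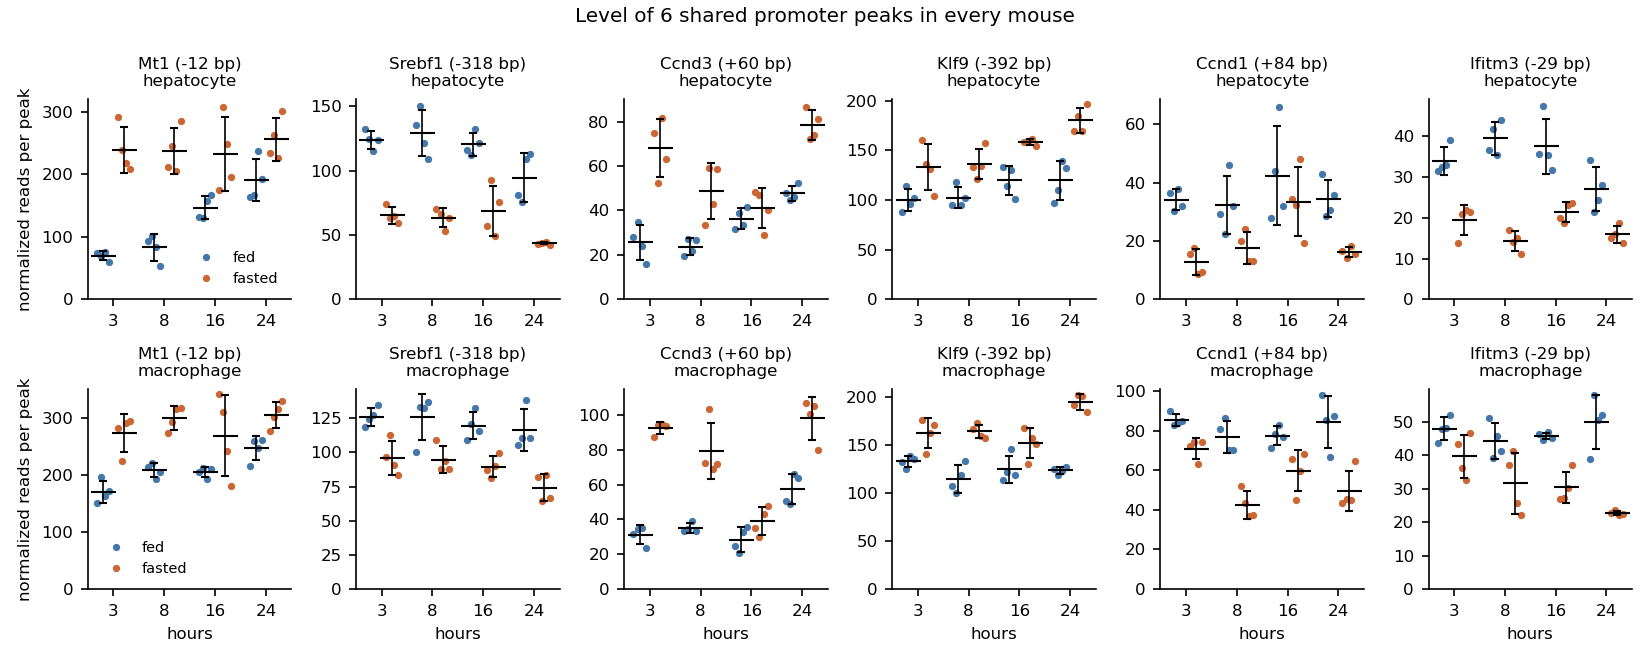
Normalized reads per 200 bp peak (y axes, from 0, each panel with its own scale) in every mouse at 3, 8, 16 and 24 h (x axes), hepatocytes above and macrophages below, for peaks of Mt1, Srebf1, Ccnd3, Klf9, Ccnd1 and Ifitm3; bars give the mean and SD of 4 mice. At 24 h the fasted Ifitm3 levels of macrophages lie between 22.1 and 23.8, below the fed mice at 39.05 to 58.2.

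In hepatocytes at 3 h the members that rose most were Mt1, Ccnd3, Gstt2 (1.37), a glutathione transferase gene, Nr4a1 (1.32), an immediate early orphan nuclear receptor, and Maff (1.31), a small MAF factor. At Nr4a1 (chr15:101266638-101266838) the fed mice had 30.2, 36.1, 33.6 and 45.7 and the fasted mice 131, 52.0, 125 and 85.3, with all 4 fasted mice higher. The members that fell most were Hist1h1d (-1.86), which encodes a linker histone, Hist1h4h (-1.45), Gtf3c6 (-1.42), a subunit of transcription factor IIIC, Ccnd1 and Rnase4 (-1.10). At Hist1h1d (chr13:23554929-23555129) fed mice had 51.98, 71.5, 42.5 and 46.4 and fasted mice 17.1, 12.0, 8.73 and 15.003 (log2 fold change -1.86 ± 0.22 (SE), adjusted p = 1.36e-07), and the groups were far apart.

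Replication-dependent histone genes, a family looked at after these values were seen, had 50 members at 39 genes. In hepatocytes 13 were lower and 0 higher at 3 h, with a median of -0.31, and 10 lower and 1 higher at 8 h, with a median of -0.18. Among all hepatocyte members 2.66 and 1.71% were lower at these times. Macrophages had 1 lower and 0 higher at 3 h and 4 lower and 0 higher at 8 h. At 16 h macrophages had 8 lower and 1 higher, and hepatocytes 2 lower and 3 higher. Among all macrophage members 0.0706, 0.415 and 6.13% were lower at 3, 8 and 16 h. At 24 h hepatocytes had 2 lower and 7 higher on the deposited scale, and 6 lower and 0 higher after centring. Among all hepatocyte members 0.653 and 4.24% were then lower. These genes lie in clusters of near-identical copies, so reads may have been split or lost between them.

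At 8 h the largest hepatocyte rises were at Tmem87b, Pla2g12a (1.58), a secreted phospholipase gene, Mt1, Mtag2 (1.49) and Maff (1.45). At Pla2g12a (chr3:129878467-129878667) fed mice had 12.9, 21.4, 19.5 and 14.9 and fasted mice 54.1, 62.1, 52.9 and 48.3, so that the lowest fasted mouse had over 2 times the highest fed mouse. The largest falls were at Gbp7 (-1.90), which encodes an interferon-induced GTPase, Hist1h1d, Fam26f (-1.54), Ifitm3 and Hist1h4h. Gbp7 (chr3:142530107-142530307) had 121, 70.6, 137 and 133 in fed and 45.5, 25.4, 35.1 and 15.9 in fasted mice (log2 fold change -1.90 ± 0.23 (SE), adjusted p = 5.39e-08). Fed mouse 2 was lower than the other fed mice, and still above all fasted mice.

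At 16 h Gpam (1.30), the gene of the first enzyme of glycerolipid synthesis, Atf4 (1.27), a stress-response transcription factor, Mapk7 (1.26), the kinase ERK5, Tmem87b and Syt7 (1.17) rose most. Gpam (chr19:55099408-55099608) had 12.6, 12.5, 16.7 and 15.9 in fed and 36.3, 36.4, 50.5 and 32.3 in fasted mice, with no overlap. Gbp7, Fam26f, Mid1ip1 (-1.03), whose protein promotes fatty acid synthesis, H2-M3 (-0.96), a class I antigen-presenting gene, and Angptl4 (-0.90), an inhibitor of lipoprotein lipase, fell most. At 24 h the largest rises were at St3gal2 (1.43), a sialyltransferase gene, Nr4a1, Gpam, Mapk7 and Pla2g12a. The largest falls were at Fam26f (-1.47), Gbp7, Bach2os (-1.31), Cndp2 (-1.21), a dipeptidase gene, and Srebf1. A predicted gene, Gm5464, was passed over by the naming rule; the peak at its +280 bp changed by -2.02, -2.49 and -2.20 in hepatocytes at 8, 16 and 24 h, the lowest of all members there, and by -0.69, -1.04 and -0.64 in macrophages. It is named here after its values were seen, as is Mir1934, the microRNA gene with the largest rise of any member at 16 h in both cell types.

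Among genes that the rule allowed, macrophages at 3 h had their largest rises at Ccnd3, Tmem201 (0.75), Shox2 (0.72), Tmem87b and the sulfotransferase gene Sult1a1 (0.71), while Fbrsl1 (-0.59), Hist1h1d, Echdc1 (-0.41), Srebf1 and Kank2 (-0.38) fell. At 8 h Ccnd3, Tmem201, the deubiquitinase gene Usp48 (0.83), Tex264 (0.80) and Dda1 (0.71) rose, and Ccnd1, Hist1h4h (-0.80), Hist1h1d, Gtf3c6 and Fut10 (-0.59) fell. The largest rises at 16 h were at Elmsan1 (0.92), Dis3l (0.83), Sumo3 (0.82), a ubiquitin-like modifier, Sh2b1 (0.77), an adaptor of receptor kinases, and the chromatin reader gene Brd2 (0.74). The largest falls there were at Mex3b (-0.79), an RNA-binding protein gene, the kinase gene Sgk3 (-0.73), Klhl42, Tusc3 and Alkbh8 (each -0.68). At 24 h Ccnd3, Tmem87b, Klf9, Marveld1 (0.60) and Bahd1 (0.55) rose, and Ifitm3, Pkmyt1 (-1.05), a kinase gene that holds back mitosis, Zhx2 (-0.90), Ifih1 (-0.76), a sensor of viral RNA, and Dnaaf3 (-0.75) fell. All of these passed in limma with no overlap between fasted and fed mice, but several calls were lost when 1 mouse was left out. Kank2 at 3 h did not pass in any of the 8 fits that left out 1 mouse. Shox2 at 3 h did not pass in 6 of 8 (all but without fasted mouse 2 or fed mouse 1), and Hist1h1d at 3 h and Fut10 at 8 h in 6 of 8 each (all but without fasted or fed mouse 2). Marveld1 at 24 h did not pass in 6 of 8 (all but without fed mouse 3 or 4), nor Fbrsl1 at 3 h without fasted mouse 1 or 4 or fed mouse 1. Single mice also ended the calls of Tmem87b at 3 h (fasted mouse 4), Hist1h4h at 8 h (fasted mouse 3) and Gtf3c6 at 8 h (fed mouse 3).

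The fasting effect itself was compared between the cell types in 1 fit over the 11400 pairs and the other shared pairs. On the deposited scales it was larger in hepatocytes (more positive) at 36 members and smaller at 16 at 3 h, 0.456% of members beside 0.732% of all 14070 shared pairs (0.398% larger, 0.334% smaller). At 8 h it was 274 and 20, 2.58% beside 3.47% (3.06% larger, 0.405% smaller). The counts were 543 and 16 at 16 h, 4.90% beside 5.22% (4.95% larger, 0.277% smaller), and 1933 and 7 at 24 h, 17.0% beside 16% (15.5% larger, 0.448% smaller). Each table has its own scale. After centring both on the shared promoters the counts were 39 and 18 (all pairs 0.405 and 0.377%), 83 and 55 (1.07 and 0.789%), 31 and 43 (0.476 and 0.561%), and 4 and 11 (0.0498 and 0.434%). In either direction all pairs were then called at 0.782, 1.86, 1.04 and 0.483%. The 24 h count thus went from 1940 to 15 with the scale, and on the deposited scale it lay between 580 without hepatocyte fasted mouse 4 and 2932 without hepatocyte fasted mouse 3.

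Differences that passed on both scales were at few members. Nr4a1 differed at 3 h (1.21 ± 0.29 (SE), adjusted p = 0.0185), 8 h (1.28 ± 0.29 (SE), adjusted p = 0.00337) and 24 h (1.41 ± 0.29 (SE), adjusted p = 0.00299), with rises in hepatocytes and macrophage changes that did not pass. The 3 h difference no longer passed when any 1 of 6 mice was left out (hepatocyte fasted 1 or 3, hepatocyte fed 1, macrophage fasted 1, macrophage fed 2 or 3). Its macrophage levels at 24 h were 169, 193, 179 and 165 fed and 171, 196, 148 and 162 fasted, which overlap. Pla2g12a differed by 1.55 ± 0.21 (SE), adjusted p = 2.78e-07 at 8 h, Rhoc, a small GTPase gene, by 1.48 ± 0.20 (SE), adjusted p = 3.64e-07, and Mtag2 by 1.39 ± 0.21 (SE), adjusted p = 5.54e-06. Gpam differed by 1.33 ± 0.25 (SE), adjusted p = 0.000417 at 16 h, while its macrophage change was -0.03. Heg1 and Mex3b at 16 h had opposite signs, with 0.56 and -0.66 at Heg1 (1.22 ± 0.22 (SE), adjusted p = 0.000142) and 0.35 and -0.79 at Mex3b (1.14 ± 0.25 (SE), adjusted p = 0.00282).

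On the lower side, Hist1h1d fell more in hepatocytes at 3 h (-1.38 ± 0.24 (SE), adjusted p = 0.000345) and 8 h (-1.12 ± 0.24 (SE), adjusted p = 0.002). Gbp7 did so at 8 h (-1.56 ± 0.24 (SE), adjusted p = 8.79e-06) and 16 h (-1.14 ± 0.24 (SE), adjusted p = 0.00233), and Fam26f at 8, 16 and 24 h (-1.10 ± 0.22 (SE), adjusted p = 0.00273 at 24 h). Angptl4 at 16 h differed by -0.94 ± 0.27 (SE), adjusted p = 0.0282, which did not pass without hepatocyte fasted mouse 3, hepatocyte fed mouse 1, macrophage fasted mouse 4 or macrophage fed mouse 2, and Cndp2 at 24 h by -0.89 ± 0.18 (SE), adjusted p = 0.00299. These 5 genes also passed after centring at the times given.

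Gene lists were then read by counts and medians beside those of all members; they carry no test of their own. Of the sterol synthesis and SREBP axis, which makes cholesterol and controls its supply, 22 genes had 35 members. In hepatocytes 16 were lower and 1 higher at 3 h, with a median of -0.27 where all members had -0.0069. The lower members included the 3 Srebf1 peaks and those of Cyp51, Fdps and Nsdhl, enzymes of sterol synthesis. At 8 h it was 14 lower and 1 higher (median -0.20, all members 0.13), and at 16 h 9 lower and 1 higher. At 24 h 7 were higher and 2 lower on the deposited scale, and 0 higher and 15 lower after centring. Among all hepatocyte members 2.66, 1.71, 0.82 and 0.653% were lower at the 4 times, and 4.24% at 24 h after centring. The member that rose at all 4 times was Ggps1, the gene of geranylgeranyl diphosphate synthase (0.65 at 3 h).

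The same list in macrophages had 0 higher and 9 lower members at 16 h (median -0.11, all members -0.00096), with 8 lower after centring. They included Cyp51 (-0.48) and Idi1 (-0.42), an isoprenoid enzyme gene. With libraries centred on the median of all peaks the count was 1 higher and 2 lower. Among all macrophage members 6.13% were lower at that time on the deposited scale. Hmgcs1, whose upstream sequence with its sterol regulatory element is printed above, fell in hepatocytes at 3 h at -5 bp (log2 fold change -0.36 ± 0.08 (SE), adjusted p = 0.00138), and its macrophage change of -0.24 did not pass.

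Fatty acid synthesis genes (12 genes, 15 members) had 8 lower and 0 higher members in hepatocytes at 3 h, among them Fasn (-0.55), fatty acid synthase, Slc25a1 (-0.53), the citrate carrier, and Acly (-0.35), ATP citrate lyase. Among all hepatocyte members 2.66% were lower at that time. Gpam, listed with the fatty acid synthesis genes, ran the other way. In macrophages 3 were lower and 0 higher at 16 h, Slc25a1 (-0.42), Fasn at +352 bp (-0.33) and Fads1 (-0.29). Fasn did not pass without fasted mouse 1 or fed mouse 4, and with centring on all peaks 0 were lower and 1 higher. Fatty acid oxidation and ketogenesis genes (22 genes, 26 members) had 14 higher and 0 lower members in hepatocytes at 8 h, with a median of 0.29 against 0.13 for all members, and 8 higher after centring. They included Cpt1a at -856 bp (1.05), which carries fatty acids into mitochondria, and Hadhb (0.95) and Hadha (0.72), the subunits of the trifunctional protein. Among all hepatocyte members 17.5% were higher at 8 h, and 6.56% after centring. In macrophages 1 was higher and 0 lower at that time, where 1.61% of all members were higher.

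Glucocorticoid-responsive genes (17 genes, 31 members) were called higher and never lower at all times in both cell types on the deposited scale. In macrophages the counts were 5, 6, 9 and 8 at 3, 8, 16 and 24 h, with medians of 0.09, 0.14, 0.04 and 0.12, where all members had between -0.0041 and 0.03 and 0.309, 1.61, 6.11 and 3.48% of them were higher. In hepatocytes they were 4, 9, 7 and 16 of 31, where 5.72, 17.5, 21.3 and 48.2% of all members were higher, so the 16 and 24 h counts lay near the background. After centring they were 4, 7, 3 and 3, with 0, 1, 1 and 0 lower. Among all hepatocyte members 5.72, 6.56, 3.78 and 2.99% were then higher. Dusp1, a MAP kinase phosphatase gene, rose in macrophages at +118 bp by 0.65, 0.67, 0.69 and 0.47 at the 4 times; the 3 h call did not hold without fasted mouse 3 or 4 or fed mouse 1 or 2, nor the 8 h call without fasted mouse 4 or fed mouse 2. Per1, a clock repressor gene that glucocorticoids also induce, rose in macrophages at 3 h, from 189, 206, 178 and 209.6 to 243, 256, 244 and 259 (log2 fold change 0.36 ± 0.08 (SE), adjusted p = 0.00612), with all fasted mice higher, and did not pass without fed mouse 3. Its hepatocyte change at 3 h was 0.16 and did not pass. Of the 33 clock members, 21 were higher in hepatocytes at 24 h and 4 after centring. Among all hepatocyte members 48.2 and 2.99% were. In macrophages at 24 h Arntl (0.41 at -102 bp), the core activator BMAL1, rose, and Dbp (-0.56), an output factor, fell, though Dbp did not pass with centring on all peaks or in 6 of 8 fits that left out 1 mouse (all but without fed or fasted mouse 3).

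Interferon response genes (16 genes, 18 members) had 0 higher and 9 lower members in macrophages at 24 h, with a median of -0.28 against 0.03 for all members, and 10 lower after centring. Among all macrophage members 1.95% were lower at that time, and 2.76% after centring. With centring on all peaks 4 were lower, beside 0.485% of all members. Ifih1 and Ddx58 (-0.67), sensors of viral RNA, and Usp18 (-0.47), a brake on interferon signalling, were among them. In hepatocytes 3, 4, 0 and 1 were lower at 3, 8, 16 and 24 h, with 0, 1, 1 and 2 higher, and after centring 3, 6, 3 and 6 were lower and 0 higher. Igtp, an interferon-induced GTPase gene outside that list, fell in both cell types at 24 h, from 55.7, 50.6, 40.9 and 44.2 to 28.4, 24.9, 34.8 and 29.4 in macrophages (log2 fold change -0.67 ± 0.16 (SE), adjusted p = 0.00396 in limma). Its hepatocyte change was -0.65, which no longer passed without fasted mouse 1 or without fed mouse 4. Hepatocyte reads near macrophage markers were 0.0205 to 0.0245% in fed and 0.0264 to 0.0321% in fasted mice at 3 h, without overlap, 0.0201 to 0.0245% and 0.0186 to 0.0258% at 8 h, and 0.025 to 0.0304% and 0.0281 to 0.0306% at 24 h, both overlapping. Their part in these changes was not tested. Members whose upstream run holds an interferon-stimulated response element (126) differed in their median change from all members with a sequence by -0.09 in hepatocytes and -0.06 in macrophages at 24 h, and those with a STAT site (65) by -0.12 and -0.08. For the sterol regulatory element (52 members) the differences were -0.03, 0.0058, -0.01 and -0.07 in hepatocytes at 3, 8, 16 and 24 h. In macrophages they were -0.02, -0.02, -0.02 and -0.0066. For the glucocorticoid receptor element (13 members) they were 0.04, 0.05, -0.08 and 0.03 in hepatocytes, and 0.04, 0.02, 0.03 and -0.01 in macrophages. Members with an NRF1 site (149) differed by 0.09 in hepatocytes at 8 h. None of these differences was tested.

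Immediate early and AP-1 genes (24 genes, 36 members) had 14 higher and 0 lower members in hepatocytes at 8 h, 9 and 0 after centring. Maff, Nr4a3 (1.28) and Nr4a1 led them, and macrophages had 1 higher at that time, Dusp1. Of all hepatocyte members at 8 h 17.5% were higher, and 6.56% after centring. Heat shock and ER chaperone genes (26 genes, 38 members) had 30 higher members in hepatocytes at 24 h, but 1 after centring. Of all hepatocyte members at 24 h 48.2% were higher, and 2.99% after centring. The housekeeping lists, read beside these same shares, followed the bulk. Cytosolic ribosomal protein genes (71 genes, 91 members) had 55 higher and 0 lower in hepatocytes at 24 h, with a median of 0.34 against 0.29 for all members, and 4 higher and 1 lower after centring. Respiratory chain and ATP synthase genes (70 genes, 88 members) had 50 and 0, then 5 and 3, and proteasome subunits (30 genes, 36 members) had 21 and 0, then 1 and 0. In macrophages at 24 h these 3 lists had 1, 1 and 1 higher and 1, 0 and 0 lower on the deposited scale. With centring on all peaks they had 10, 10 and 6 higher and 0 lower, where 11.6% of all members were higher.

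**Figure D5:**
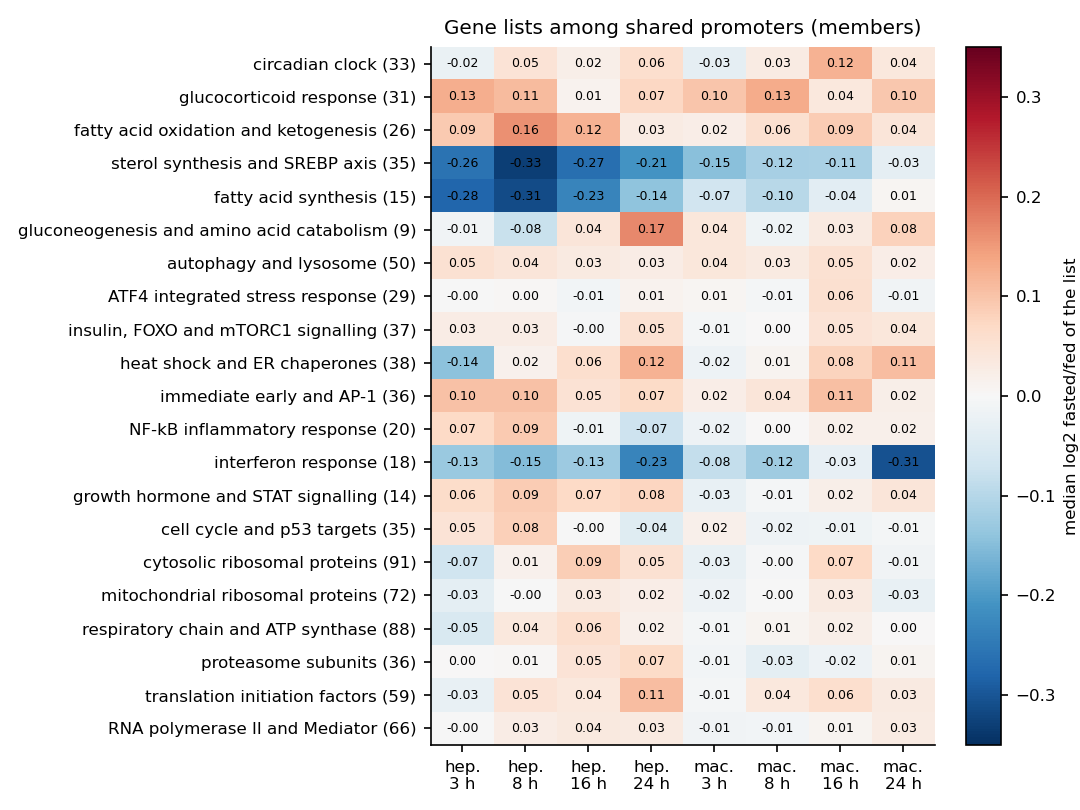
Median log2 fold change of fasted over fed mice of each list's members minus the median of all shared promoters (colour and printed value), for 21 lists (rows, with the number of members) and each cell type and time (columns). The sterol list has medians of -0.27 at 3 h and -0.20 at 8 h in hepatocytes before that subtraction, and the interferon list -0.28 in macrophages at 24 h.

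Of the 2282 genes with 2 or more members, promoters of 1 gene were rarely called in opposite directions. In hepatocytes this was so at 6, 1, 2 and 6 genes at 3, 8, 16 and 24 h, and in macrophages at 1, 2, 9 and 1. Besides Ccnd3 they included Erf, a transcriptional repressor gene, in macrophages at 3 h (0.71 at +977 bp and -0.25 at -78 bp), where the first did not pass without fasted mouse 3 or 4 or fed mouse 2. These were picked out after their values were seen.

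The size of the fasting effect differed between times at 1914 hepatocyte members in limma's F test, 16.9% beside 24.1% of all tested peaks, and at 179 macrophage members, 1.58% beside 3.49%. After centring the counts were 640 and 169, where all peaks had 20.3 and 3.24%. Mt1 (F = 16.9, adjusted p = 6.41e-05) and Hist1h1d (adjusted p = 0.000112) differed in hepatocytes, with their largest changes at 3 and 8 h. Ccnd3 at +60 bp differed in both (adjusted p = 0.00692 in hepatocytes and 0.00795 in macrophages), with the smallest change at 16 h. Srebf1 at -318 bp did not pass in either (adjusted p = 0.752 and 0.595).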

How the data were processed

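ATAC-seq reads were counted by the authors in 200 bp peaks, in 1 table for hepatocyte and 1 for macrophage nuclei. The deposited values are a signal per peak and mouse, normalized by the authors; per the submitters' processing notes BWA 0.7.5a-r405, SAMtools, HOMER, DESeq2 and the mm10 build were used, with no role or setting stated. How the scaling factor was set, and how the macrophage duplicates were joined, is not given in the sources used here. Of the deposited values 100.0% were whole multiples of 1 step per library within 0.01 of a read, so reads could be recovered as an alternative. Mice are separate samples. P-values rest on the spread between mice within groups, pooled over the 8 groups of a cell type and moderated across peaks. For the difference between cell types the spread was pooled over all 16 groups.

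Values were offset by 2, log2-transformed and fitted with limma 3.58.1 (R 4.3.3), 1 mean for each of the 8 groups of a cell type, with a trend in the prior variance, and two-sided p-values adjusted by Benjamini-Hochberg over all tested peaks (mean of at least 10 normalized reads) at 0.05. All 11400 pairs passed this filter. The difference between cell types was fitted once over all shared pairs. Scripts were tested on simulated data. Alternatives were an offset of 8, no filter, centring on each library's median over all peaks or over the shared promoters, sets of library numbers as a block, edgeR 4.0.16 and DESeq2 1.42.0 on recovered reads, an overlap of 150 bp, a TSS within 500 bp, separate fits, and leaving out each mouse. Centring on the shared promoters and all alternatives of the F test were chosen after seeing the data. The count test by edgeR called 1111, 1594, 1243 and 2372 hepatocyte members and 50, 723, 2045 and 1140 macrophage members at 3, 8, 16 and 24 h. Of these, 787, 1251, 1059 and 2211 were higher in hepatocytes and 41, 708, 1913 and 1032 in macrophages. The median macrophage member changed there by -0.0092, 0.10, 0.11 and 0.09, and the median tested peak by -0.01, 0.0093, 0.0073 and -0.0011.

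The members and the gene lists were chosen with earlier results of these data known. Members named are, per comparison, the 5 largest rises and 5 largest falls that passed with no overlap between groups, 1 per gene, up to 2 per gene list, the 6 largest positive and negative differences between cell types, and the 8 strongest in both cell types; predicted and small RNA genes were passed over. This rule gave 243 members. Sequences were asked for at the 6 members called in both cell types at the most times, and 2 of them had one in RefSeq; the other 6 printed, the members of Hmgcs1 and Ggps1, and some comparisons given for named members, were chosen after their values were seen. Deposited fold changes and p-values of the authors were not used here. Results for 2 genes are not reported here.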

Additional observations from a re-analysis of the deposited data

Results flagged for a closer look

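The fasting effect differed between the cell types, by the test of the difference itself in limma, at 52 members at 3 h, 294 at 8 h, 559 at 16 h and 1940 at 24 h. These were 0.456, 2.58, 4.90 and 17.0% of members, beside 0.732, 3.47, 5.22 and 16% of all shared pairs. After centring on the shared promoters the counts were 57, 138, 74 and 15, where all shared pairs had 0.782, 1.86, 1.04 and 0.483%. Between the 4 times the effect differed, by the F test, at 1914 members in hepatocytes (16.9% beside 24.1% of all tested peaks). In macrophages it did so at 179 members (1.58% beside 3.49%).

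In 112 groups of 4 mice over the 6 members called in both cell types at the most times and the reads in shared promoters, 7 held 1 mouse far from the other 3, by a gap that took most of the group's range (Dixon's criterion); chance gives about 1 in 20 groups. At Srebf1 (-318 bp) in fed macrophages the lowest mouse at 8 h had 100.6 normalized reads, and the highest at 24 h had 139. Mt1 in fasted macrophages at 3 h had 1 low mouse at 224. At Ccnd3 (+60 bp) in fasted macrophages 1 mouse was low at 3 h with 87.1 and 1 high at 8 h with 103. Ifitm3 in fasted hepatocytes at 3 h had 1 low mouse at 13.9, and Pim3 (+170 bp) in fed hepatocytes at 3 h had 1 high mouse at 166.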

How the results depend on the processing

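Counts of called members were within 1.5 times those reported with an offset of 8, without the filter on low values, with an overlap of 150 bp, with a TSS within 500 bp and with library sets as a block. They moved with the scale. Centring on all peaks gave 1435, 1544 and 3694 in hepatocytes at 8, 16 and 24 h, 27, 611, 2549 and 1368 in macrophages at 3, 8, 16 and 24 h, 275 between times in macrophages, and 118, 37 and 8 differences between cell types at 8, 16 and 24 h. Centring on the shared promoters gave 891 and 820 in hepatocytes at 16 and 24 h, 640 between times, and 138, 74 and 15 differences at 8, 16 and 24 h. With edgeR there were 1243 and 2372 in hepatocytes at 16 and 24 h and 901 between times, 723 and 1140 in macrophages at 8 and 24 h and 315 between times, and 88, 152, 57 and 15 differences. DESeq2 gave 1402, 1198 and 2163 in hepatocytes at 8, 16 and 24 h and 383 in macrophages at 8 h, and separate fits gave 34 differences at 3 h. These settings change the scale or the test, and the cause was not tested further.

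Leaving out 1 mouse at a time gave 672 to 980, 1466 to 2266, 1574 to 3177 and 3827 to 5638 in hepatocytes at 3, 8, 16 and 24 h, and 14 to 35, 80 to 286, 887 to 1751 and 320 to 604 in macrophages. Differences ranged from 33 to 90, 182 to 346, 171 to 1303 and 580 to 2932, and calls between times from 1225 to 2236 in hepatocytes and 93 to 308 in macrophages. Counts moved by over 1.5 times without these mice. Hepatocytes at 16 h: fed 1 or fasted 3 (1665). Macrophages at 3 h: fasted 1 (28), 3 (20) or 4, fed 1 (17) or 3 (26). Macrophages at 8 h: fasted 2 (148), 3 or 4 (93), fed 1 (93) or 2 (117). Macrophages at 16 h: fed 1 or fasted 1 (903). Macrophages at 24 h: fasted 1 (392), 2 (399) or 4 (370), fed 1. Between times in hepatocytes: fasted 4 of 24 h (1263) or fed 2 of 3 h. Between times in macrophages: fasted 3 of 16 h, fasted 3 (102) or 4 of 3 h, fed 1 of 16 h (114) or fed 1 of 3 h (115). Differences at 3 h: hepatocyte fasted 2, macrophage fasted 1 or fed 2. At 8 h: macrophage fasted 1 (192), fed 1 (192) or 2. At 16 h: hepatocyte fasted 3 (331), any hepatocyte fed mouse (281, 345, 1303 and 295), macrophage fasted 4, fed 1 (363), 2 (332) or 3 (349). At 24 h: hepatocyte fasted 2 (1108), 3 or 4, fed 1 (1199) or 2 (831), macrophage fasted 4 (1233). Over 403 results for named members, none changed sign, and the number that no longer passed was 53 with centring on the shared promoters, 38 with centring on all peaks and 30 with edgeR. DESeq2 and library sets as a block covered 356 of these results, leaving out differences between cell types. Of the 356, 35 no longer passed with DESeq2 and 0 with library sets as a block. In fits that left out 1 mouse, named results still passed 3219 times and did not 381 times. No paired analysis was possible because the labels give no replicate numbers. The depth in peaks given in the report limits what small changes could be called.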
